A study of Mus musculus with 8 samples.

Results

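Apolipoproteins and the proteins that load and unload lipoproteins were followed in the livers of newborn mice that lack Mfp2. The set holds 10 genes: the apolipoproteins Apoa1, Apoa2, Apoa4, Apoa5, Apob, Apoc1, Apoc3 and Apoe, the lipid transfer protein Mttp, and the lipase Lpl. It takes in every probe set that the array annotation pairs with exactly 1 of these symbols, which gave 17 of the 45101 probe sets on the array. All 10 genes were found, among 18193 genes named on it. Apoa1 has 4 probe sets, Apoa4, Apob, Mttp and Lpl have 2 each, and the other 5 genes have 1 each. The 17 values are therefore not independent, and probe sets whose name ends in _x_at can also take up related transcripts.

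Liver RNA of 8 mice, each 2 days old, was hybridised to 1 array per mouse. Of these, 4 were knockout mice (Mfp2 -/-) and 4 were wild type (WT), with replicates numbered 1 to 4 in each group. Mfp2 is a multifunctional enzyme of peroxisomal beta-oxidation and is encoded by Hsd17b4. The comparison asks how the liver transcripts of these genes differ in newborn mice without this enzyme. Strain, sex, feeding state and litter are not stated in the labels used here. The values are log2 expression values made with RMA (robust multi-array average), a method that gives all arrays a shared distribution of probe signals. Differences are knockout minus wild type on that log2 scale.

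Apolipoproteins are the protein coat of the particles that carry fat and cholesterol in blood. In the liver, apoB, the structural protein of very low density lipoprotein (VLDL), is loaded with triglyceride in the endoplasmic reticulum by the microsomal triglyceride transfer protein, Mttp. ApoA-I and apoA-II are the main proteins of high density lipoprotein (HDL), apoE is a ligand of the receptors that clear remnant particles, and apoC-I, apoC-III and apoA-V act on how fast triglyceride is removed. Lipoprotein lipase, Lpl, splits the triglyceride of circulating particles, and is known to be expressed in the liver of newborn rodents and to be shut down there as they mature.

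The labels held against the targeted gene. Hsd17b4 averaged 3.84 ± 0.45 (SD, n = 4) in the knockout against 8.50 ± 0.40 in the wild type, and fell by 4.66 ± 0.25 (SE) with a limma adjusted p of 1e-04. Where its probes lie relative to the deleted part was not examined. Array medians lay between 3.68 and 3.73, and correlations between arrays over all probe sets ran from 0.983 to 0.993 within groups and from 0.976 to 0.989 across them. Newborn liver is still a blood-forming organ. While 53.3% of all genes had a higher mean in the knockout, 5 of 6 measured erythroid markers had a lower one. The exception, Hba-a1, lay below the median of every array, averaging 2.14 in the knockout against 1.90 in the wild type. The mean of 6 measured erythroid markers lay between 7.23 and 7.81 in knockout and between 7.96 and 8.21 in wild type livers, without overlap. In limma 1 of their 8 probe sets passed the threshold, where 0.762% of all probe sets did. That probe set measures Slc4a1, the anion exchanger of red cells, and fell by 0.95 ± 0.17 (SE, adjusted p 0.0441). With the highest-mean probe set of each gene 0 of the 6 passed, against 1.15% of all genes. At an unadjusted p under 0.05 there were 5, against 14.6% of all genes. Among the 5 was Klf1, an erythroid transcription factor (-0.91 ± 0.19, adjusted p 0.0636). In whole liver, fewer cells of a type and less RNA per cell cannot be told apart, and the part of the erythroid difference in the results below was not tested. Hepatocyte markers overlapped between groups in their mean (12.2 to 12.5 in knockout, 12.2 to 12.3 in wild type). In limma 0 of 6 passed the threshold (1.15% of all genes), and 1 had an unadjusted p under 0.05 (14.6% of all genes). Albumin itself, Alb, differed by -0.05 ± 0.08 (adjusted p 0.890).

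None of the 17 probe sets passed the threshold of an adjusted p of 0.05 in limma, where 0.762% of all 45037 probe sets tested did. At an unadjusted p under 0.05 there were 6 of the 17, against 11.7% of all probe sets. All 6 were higher in the knockout, against 5.17% of all probe sets. They belong to 5 genes, Apoa4, Apoa5, Apob, Mttp and Lpl. Means were higher in the knockout for 16 of the 17 probe sets, where 54.1% of all probe sets had a higher mean. The median difference was 0.29 over the 17 and 0.02 over all probe sets. In 4 of the 17 the 4 knockout values lay apart from the 4 wild type values, against 6.9% of all probe sets. They lay above them in all 4, against 3.09% of all probe sets. Of these 4, 2 are Apoa1 probe sets that measure the same transcript. Per gene, with the probe set of the highest mean, 9 of 10 had a higher mean in the knockout, against 53.3% of all genes. Apoc3 had a lower one.

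**Figure D1:**
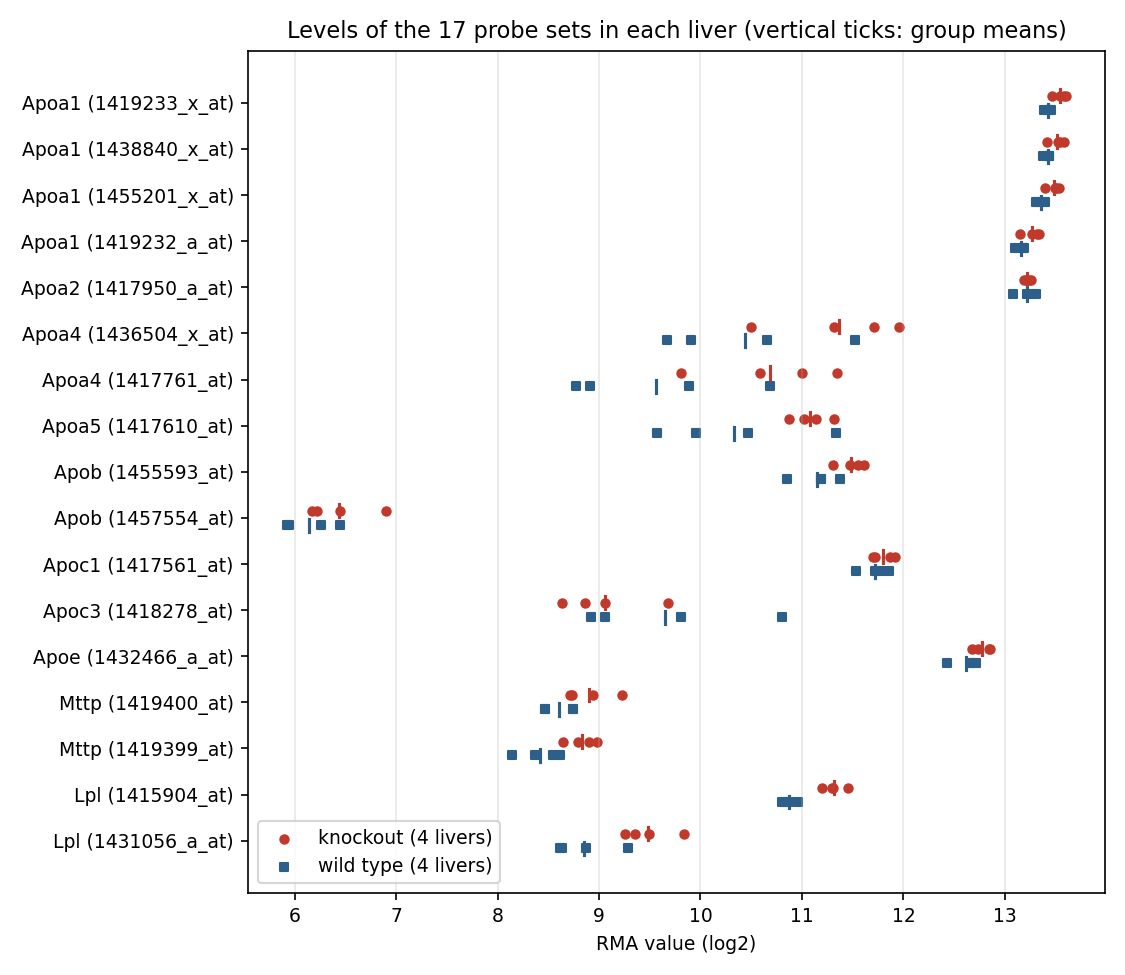
RMA values on the log2 scale (horizontal axis) of the 17 probe sets (rows) in the 4 knockout livers (circles) and the 4 wild type livers (squares), with group means as vertical ticks. Apoa1, Apoa2, Apoc1 and Apoe form tight clusters, while Apoa4, Apoa5 and Apoc3 are spread widely between livers. Levels of different probe sets are not comparable as amounts of transcript.

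Lpl stood closest to the threshold. Lpl codes for the lipase that is anchored on capillary walls and releases fatty acids from VLDL and chylomicrons. Its probe set 1415904_at read 11.45, 11.19, 11.30 and 11.30 in knockout livers 1 to 4, and 10.96, 10.80, 10.85 and 10.88 in wild type livers 1 to 4. Every knockout liver lay above every wild type liver, with the gap between knockout 2 and wild type 1. The means were 11.31 ± 0.11 (SD, n = 4) and 10.87 ± 0.07, a difference of 0.44 ± 0.09 (SE), or 1.36-fold with a 95% interval of 1.18 to 1.56, and the limma adjusted p was 0.0636. Replicates 1 and 2 alone gave a difference of 0.44, and replicates 3 and 4 alone likewise 0.44. In replicates 1 and 2 genotype ran together with the level of the Y-linked gene Eif2s3y, given below. The other probe set, 1431056_a_at, read 9.84, 9.49, 9.35 and 9.25 in knockout and 9.29, 8.87, 8.62 and 8.63 in wild type livers. Here the groups overlapped by a single pair, since wild type 1 was above knockout 4. Its difference was 0.63 ± 0.18 (SE), 1.55-fold with an interval of 1.18 to 2.03 and an adjusted p of 0.157. The call on Lpl depended on the model: 1415904_at passed with a variance trend (adjusted p 0.0470) and with array weights (0.0312), and 1431056_a_at passed with the 2 sets of replicates as a block (0.0476).

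Adipose tissue and macrophages are other known sites of Lpl expression, so their markers were read in the same livers. Adiponectin, Adipoq, which marks adipocytes, averaged 1.85 in knockout and 1.69 in wild type livers, below the median of every array. Of the 5 measured adipocyte markers 0 passed the threshold in limma, against 1.15% of all genes, and 1 had an unadjusted p under 0.05, against 14.6%. The one with the lowest p was Fabp4, a fatty acid binding protein also known from endothelium and macrophages, which was lower in the knockout at -0.96 ± 0.19 (SE, adjusted p 0.0592). The list's mean lay between 3.40 and 3.81 in knockout and between 3.65 and 3.80 in wild type livers. Of 9 macrophage markers 0 passed and 1 had an unadjusted p under 0.05, against the same shares of all genes. List means lay between 7.63 and 8.41 in knockout and between 7.61 and 8.14 in wild type livers. C1qa, a complement component of macrophages, had the lowest p among the 9 markers (0.37 ± 0.16, adjusted p 0.386). The part of these cells in the Lpl values was not tested.

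The expression pattern most like that of Lpl 1415904_at over the 8 livers was that of B4galt5, a galactosyltransferase, with a Pearson r of 0.973. Sycn, which codes for syncollin, and Cpeb2, which codes for an RNA-binding protein, came next with r of 0.966 and 0.963. These are the highest r among genes with a symbol other than a clone name, over 8 points that include the difference between genotypes, and are given as a description. B4galt5 rose by 0.79 ± 0.12 (SE, limma adjusted p 0.0342), while Sycn and Cpeb2 had differences of 0.56 ± 0.12 (adjusted p 0.0812) and 0.65 ± 0.13 (0.0589). Sycn was low on these arrays. It averaged 3.90 in knockout livers and 3.34 in wild type livers, the latter below the median of every array.

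The genes of VLDL assembly also averaged higher in the knockout, by smaller amounts. Apob 1455593_at read 11.61, 11.30, 11.56 and 11.47 in knockout and 10.85, 11.19, 11.37 and 11.19 in wild type livers. Wild type 3 lay above knockout 2, and wild type 1 was the lowest of all. The difference was 0.34 ± 0.13 (SE), 1.26-fold with an interval of 1.04 to 1.53 (limma adjusted p 0.315). The other Apob probe set, 1457554_at, had means of 6.43 ± 0.33 (SD, n = 4) in the knockout against 6.14 ± 0.25 in the wild type, a difference of 0.29 ± 0.18 (SE) with an adjusted p of 0.609 and overlapping groups.

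Mttp, the partner that transfers triglyceride onto apoB, was measured by 1419400_at and 1419399_at. The probe set 1419399_at read 8.65, 8.90, 8.98 and 8.79 in knockout and 8.37, 8.55, 8.14 and 8.62 in wild type livers. The groups did not overlap, but knockout 1 and wild type 4 were only a little apart. The difference was 0.41 ± 0.13 (SE), 1.33-fold with an interval of 1.10 to 1.62 and a limma adjusted p of 0.207. The probe set 1419400_at, with overlapping groups, differed by 0.30 ± 0.14 (adjusted p 0.435). Whether Apob and Mttp moved unequally was tested on the value of Apob minus that of Mttp in each liver. This averaged 2.58 ± 0.18 (SD, n = 4) in the knockout against 2.54 ± 0.24 in the wild type, a difference of 0.04 with an exact two-sided permutation p of 0.8286, so no unequal change was detectable with these 8 livers. In all, 6 such pairs were tested, and 4 against 4 livers allow no p below 0.0286.

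**Figure D2:**
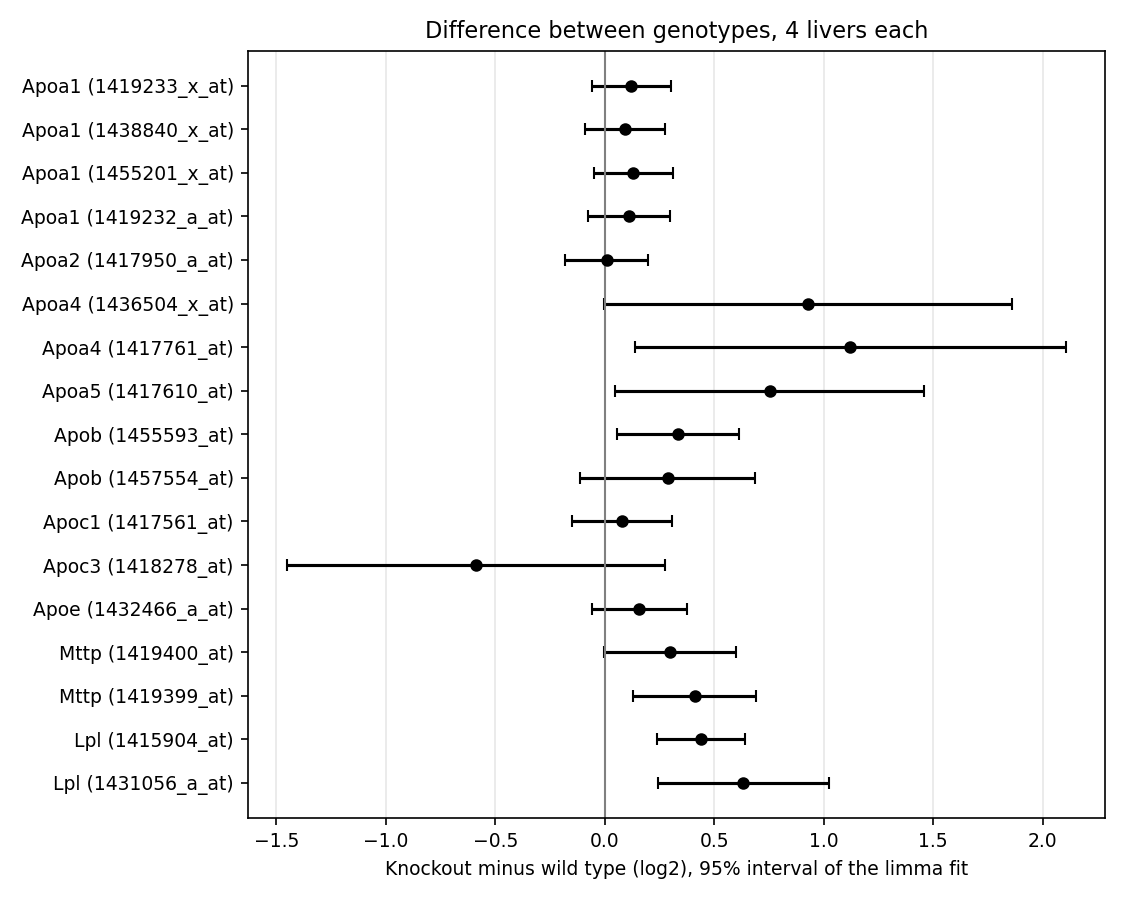
Difference between knockout and wild type livers on the log2 scale (horizontal axis) for each of the 17 probe sets (rows), with the 95% interval of the limma fit over 4 livers per group. The intervals of both Lpl probe sets lie above 0, and those of Apoa4, Apoa5 and Apoc3 are the widest.

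Apoa4 had the largest mean difference of the 10 genes and also the largest spread between livers. ApoA-IV is made by intestine and, in rodents, by liver, and its transcript is known to follow hepatic triglyceride load and fasting. The probe set 1417761_at read 11.34, 9.81, 11.00 and 10.59 in knockout and 9.89, 10.69, 8.91 and 8.77 in wild type livers. Knockout 2 was below wild type 1 and 2, and wild type 3 and 4 were the lowest of the 8 livers. The means were 10.69 ± 0.66 (SD, n = 4) and 9.57 ± 0.90, a difference of 1.12 ± 0.44 (SE), 2.18-fold with an interval of 1.10 to 4.30, and the limma adjusted p was 0.347. The probe set 1436504_x_at gave the same order of livers at its extremes and differed by 0.93 ± 0.42 (adjusted p 0.430). Replicates 1 and 2 alone gave 0.29 for 1417761_at. In replicates 3 and 4 alone 461 of all 45037 probe sets passed, against 343 with all 8 livers. There 1417761_at differed by 1.95 and passed (limma adjusted p 0.0266), as did 1436504_x_at at 1.72 (0.0315). With the mean of the erythroid markers added to the model, the sign turned for both, to -0.24 and -0.44, with limma adjusted p of 0.990 and 0.988. That mean does not overlap between genotypes, so this fit can hardly separate it from genotype, and no conclusion is drawn from the turn. The change of the difference between these 2 sets of replicates was 1.67 ± 0.64 (SE) for 1417761_at, with a limma adjusted p above 0.99 over all probe sets (0.0317 unadjusted). The labels do not say whether the sets are batches. The Y-linked gene Eif2s3y read 2.48, 2.63, 8.01 and 7.79 in knockout and 6.65, 7.71, 2.33 and 7.87 in wild type livers. In replicates 1 and 2 it was thus low in both knockout and high in both wild type livers. Within this set its level and the genotype therefore cannot be told apart, for Lpl above and for Apoa5 and Apoc3 below as well. With 3 Y-linked genes averaged and added to the model over all 8 livers, the differences were 1.20 for Apoa4 1417761_at, 0.81 for Apoa5 and -0.45 for Apoc3.

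Markers of intestine were read because of the known intestinal source of apoA-IV. Of 6 measured intestinal markers, Fabp2, the intestinal fatty acid binding protein, rose by 1.14 ± 0.15 (SE, limma adjusted p 0.0255). It read 8.53, 8.35, 7.95 and 8.69 in knockout and 7.21, 7.18, 7.14 and 7.44 in wild type livers, without overlap. The other 5 had means from 2.20 to 3.37 in both groups, below the median of every array, among them Vil1, villin of the brush border (2.36 and 2.31), and Lct, lactase (2.21 and 2.20). The list's mean lay between 3.45 and 3.70 in knockout and between 3.27 and 3.38 in wild type livers.

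Apoa5 codes for apoA-V, a liver protein of low abundance that promotes triglyceride removal by Lpl. It read 11.14, 11.31, 10.87 and 11.02 in knockout and 10.46, 11.34, 9.57 and 9.95 in wild type livers. The knockout livers lay close together, whereas the wild type livers spread widely, and wild type 2 was the highest of all 8. The means were 11.08 ± 0.19 (SD, n = 4) and 10.33 ± 0.76, a difference of 0.75 ± 0.32 (SE), 1.69-fold with an interval of 1.03 to 2.75 (limma adjusted p 0.384). Without wild type 2 the difference was 1.09 ± 0.20 (SE), 2.13-fold, and passed with a limma adjusted p of 0.0486. In that fit 489 probe sets passed in all, against 343 with all 8 livers. Leaving out any other single liver gave differences of 0.50 (without wild type 3) to 0.83 (without knockout 3), which did not pass. Replicates 1 and 2 alone gave 0.33, and replicates 3 and 4 alone gave 1.18, which also passed (limma adjusted p 0.0439). In the latter fit 461 probe sets passed in all.

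Apoc3 was the exception in direction. ApoC-III inhibits lipolysis and the uptake of remnants by the liver. It read 8.86, 8.64, 9.06 and 9.68 in knockout and 8.92, 10.80, 9.06 and 9.81 in wild type livers. Wild type 2 stood well above the other 7 livers, which overlapped. The difference was -0.59 ± 0.39 (SE), with a limma adjusted p of 0.631, and without wild type 2 it was -0.20 ± 0.28 (adjusted p 0.832). With the mean of the erythroid markers in the model, which does not overlap between genotypes, it was -2.08 ± 0.64 (SE, limma adjusted p 0.9746). Replicates 1 and 2, the set that holds wild type 2, gave -1.11, and the other set gave -0.07.

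Apoa1, Apoc3, Apoa4 and Apoa5 follow each other without another gene between them in RefSeq's list of mouse genes (GRCm38.p6), and Apoc1 and Apoe are neighbours as well. The SD within groups was 0.05 for Apoa1 (1419233_x_at), 0.69 for Apoc3, 0.75 for Apoa4 (1436504_x_at) and 0.56 for Apoa5. Of all probe sets, 98.8%, 99.1% and 97.6% had an SD at or below those of Apoc3, Apoa4 and Apoa5, and 0.582% at or below that of Apoa1. This Apoa1 probe set ranked between 1 and 4 on every array, and how far its spread is compressed at the top of the scale was not tested. Wild type 2 had the highest value of its group for Apoc3, Apoa4 and Apoa5 and the lowest for all 4 Apoa1 probe sets.

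**Figure D3:**
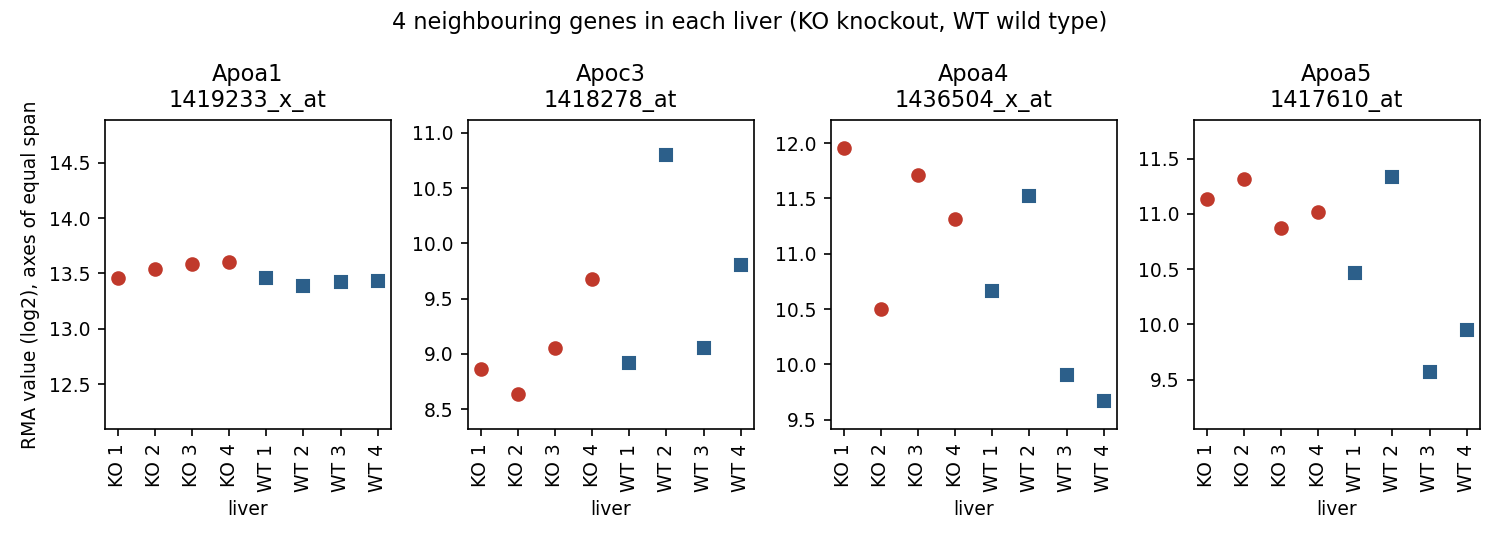
RMA values on the log2 scale of Apoa1, Apoc3, Apoa4 and Apoa5, 4 genes that follow each other on their chromosome, in each of the 8 livers (KO 1 to 4 knockout, circles; WT 1 to 4 wild type, squares). The vertical axes have equal spans but different positions. Apoa1, at the top of the scale, varies least, and WT 2 is the highest wild type liver in the other 3 panels.

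Unequal change among neighbours was tested on differences between genes within each liver. Apoc3 minus Apoa4 was -3.10, -1.86, -2.65 and -1.63 in knockout and -1.74, -0.73, -0.85 and 0.14 in wild type livers. The knockout values were lower except that knockout 4 lay above wild type 1, and the mean difference was -1.52 (exact two-sided permutation p 0.0571, Benjamini-Hochberg adjusted p 0.300 over the 6 pairs). Apoa1 minus Apoa4 differed by -0.81 and Apoa1 minus Apoc3 by 0.71, each with an exact permutation p of 0.200. Apoa4 minus Apoa5 differed by 0.17 (exact permutation p 0.629). Apoe minus Apoc1 averaged 0.98 ± 0.05 (SD, n = 4) in the knockout against 0.90 ± 0.08 in the wild type (exact permutation p 0.171). None of the 6 pairs passed after adjustment, the smallest unadjusted p being 0.0571. As the exact permutation test allows no p below 0.0286 here, no single pair could have passed on its own after adjustment over 6. The lack of a pass therefore does not decide whether neighbours changed unequally.

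Promoter windows of RefSeq in the build GRCm38.p6 were available for 7 of the 10 genes, each from 250 bases before to 50 bases after a transcript start. Those of Apoa1, Apoa4 and Apoa5 are shown as the neighbours with a window in the table, and that of Mttp as the assembly partner of apoB. Each is written 5′ to 3′ on the strand of the gene, and capitals mark the motifs found.
Apoa1, chr9:46228380-46228679, plus strand: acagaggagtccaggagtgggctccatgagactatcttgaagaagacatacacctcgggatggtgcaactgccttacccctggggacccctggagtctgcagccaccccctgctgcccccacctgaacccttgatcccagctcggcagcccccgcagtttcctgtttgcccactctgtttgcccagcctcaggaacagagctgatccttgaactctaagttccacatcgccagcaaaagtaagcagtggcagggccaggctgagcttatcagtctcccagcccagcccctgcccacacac
Apoa4, chr9:46240594-46240893, plus strand: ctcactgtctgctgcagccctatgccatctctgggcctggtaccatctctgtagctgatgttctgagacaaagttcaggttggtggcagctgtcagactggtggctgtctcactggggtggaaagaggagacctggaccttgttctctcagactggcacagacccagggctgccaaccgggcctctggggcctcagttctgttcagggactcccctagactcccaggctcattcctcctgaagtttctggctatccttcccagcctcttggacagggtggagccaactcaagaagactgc
Apoa5, chr9:46268358-46268657, plus strand: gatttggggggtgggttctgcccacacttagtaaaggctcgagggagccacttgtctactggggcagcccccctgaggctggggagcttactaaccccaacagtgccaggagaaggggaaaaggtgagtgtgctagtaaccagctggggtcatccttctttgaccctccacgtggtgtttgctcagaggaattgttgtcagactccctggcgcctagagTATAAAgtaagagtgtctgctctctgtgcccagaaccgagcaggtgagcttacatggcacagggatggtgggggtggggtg
Mttp, chr3:138143369-138143668, minus strand: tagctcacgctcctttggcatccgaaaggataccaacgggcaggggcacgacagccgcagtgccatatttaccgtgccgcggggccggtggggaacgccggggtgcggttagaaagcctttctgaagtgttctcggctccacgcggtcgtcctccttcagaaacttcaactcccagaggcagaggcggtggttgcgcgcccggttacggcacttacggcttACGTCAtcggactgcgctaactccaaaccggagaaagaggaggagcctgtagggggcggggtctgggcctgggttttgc
Windows were searched on both strands for 4 motifs. For the TATA box the letters were TATAAA, at any position in the window. The half-site of nuclear receptors was searched as AGGTCA. For the core of HNF4 sites the letters were AAAGTCC. Part of the cyclic AMP response element was searched as TGACGT. No 2 matches in the windows shown overlap. The Apoa5 window holds TATAAA, which starts 31 bases before the transcript start, and the Mttp window holds ACGTCA, the reverse complement of TGACGT, 29 bases before it. The windows of Apoa1 and Apoa4 hold none of the 4. Of all 32851 promoter windows of this length, 13.6% hold TATAAA, 16.3% AGGTCA, 4.21% AAAGTCC and 7.51% TGACGT. Apoa2, Apob and Apoe each have a window with TATAAA, and 1 of the 2 windows of Apoa2 holds both TGACCT, the reverse complement of AGGTCA, and GGACTTT, that of AAAGTCC.

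The HDL proteins and the remaining apolipoproteins showed small differences with narrow intervals. Apoa1 1419233_x_at read 13.46, 13.54, 13.58 and 13.60 in knockout and 13.45, 13.38, 13.43 and 13.43 in wild type livers. The groups did not overlap, but knockout 1 and wild type 1 all but touched. The difference was 0.12 ± 0.08 (SE), 1.09-fold with an interval of 0.961 to 1.23 (limma adjusted p 0.634), and the 4 Apoa1 probe sets differed by 0.09 to 0.13. Apoa2, the other HDL protein, read 13.19, 13.20, 13.24 and 13.26 in knockout and 13.25, 13.08, 13.30 and 13.22 in wild type livers, fully overlapping. Its difference was 0.01 ± 0.08, with an interval of 0.883-fold to 1.15-fold (adjusted p 0.984), and its sign changed with the scaling, at -0.0049 after median centring.

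Apoe read 12.68, 12.84, 12.85 and 12.73 in knockout and 12.66, 12.72, 12.67 and 12.43 in wild type livers. Wild type 2 lay above knockout 1. The difference was 0.16 ± 0.10 (SE), 1.12-fold with an interval of 0.959 to 1.30 (limma adjusted p 0.606). Apoc1, which modulates lipid-transferring enzymes and remnant uptake, read 11.72, 11.92, 11.87 and 11.70 in knockout and 11.86, 11.72, 11.77 and 11.53 in wild type livers, with overlap. Its difference was 0.08 ± 0.10, 1.06-fold with an interval of 0.902 to 1.24 (adjusted p 0.842). The Apoa1 and Apoa2 probe sets were among the 12 highest values of every array and Apoe among the 43 highest, and 13.7 was the highest value on any array. Differences near the top of the scale can be compressed, which was not tested.

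**Figure D4:**
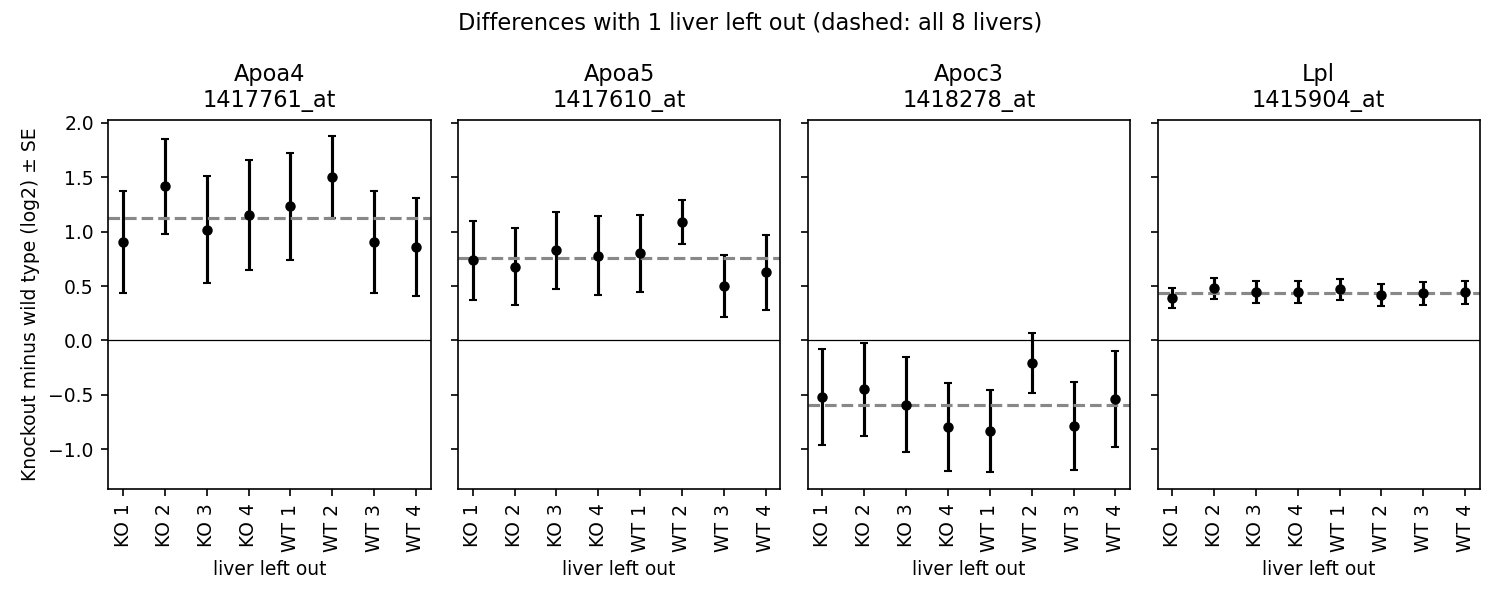
Difference between knockout and wild type on the log2 scale, with its SE, after each liver in turn was left out (horizontal axis; KO knockout, WT wild type), for Apoa4, Apoa5, Apoc3 and Lpl. Dashed lines are the differences with all 8 livers. Leaving out WT 2 moved Apoa4 to 1.50, Apoa5 to 1.09 and Apoc3 to -0.20, while Lpl stayed between 0.39 and 0.48.

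The rest of the lipoprotein pathway was read from 7 lists of related genes, of which 100 of 111 entries were measured, with 1 probe set per gene. In these, 1 gene passed the threshold in limma, where 1.15% of all 18193 genes did. It was lower in the knockout, as were 0.841% of all genes, and 0 passed as higher, against 0.308%. At an unadjusted p under 0.05 there were 23 of the 100, against 14.6% of all genes. Means were higher in the knockout for 70 of the 100, against 53.3% of all genes, and the median difference was 0.05 against 0.01 over all genes. In 10 of the 100 the groups did not overlap, against 8.61% of all genes, with 6 higher (3.59% of all genes) and 4 lower (5.02%).

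The gene that passed was Lrpap1, which codes for the receptor-associated protein, a chaperone of the LDL receptor family in the endoplasmic reticulum. It read 7.91, 8.14, 7.83 and 7.94 in knockout and 8.80, 8.36, 8.64 and 8.84 in wild type livers, without overlap, and fell by 0.71 ± 0.13 (SE, limma adjusted p 0.0441). Its other 3 probe sets had differences of -0.42 to -0.59 with adjusted p between 0.136 and 0.258. The call was lost when knockout 1, 3 or 4 or wild type 1, 3 or 4 was left out, and after a further quantile normalization. It was also lost in either set of replicates alone, with replicate numbers as a block and with erythroid markers as a covariate. In replicates 1 and 2 alone only 4 of all probe sets passed, and the erythroid mean does not overlap between genotypes. The loss in replicates 1 and 2 alone and with the erythroid covariate therefore says little about Lrpap1 itself. In replicates 3 and 4 alone 461 probe sets passed in all, and with the block 15, without this Lrpap1 probe set in either. Among the 13 measured genes of the list of lipoprotein receptors 5 had higher means, against 53.3% of all genes, and 8 had lower means. The median was -0.09.

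Cofactors and inhibitors of Lpl differed in both directions. In limma 0 of 9 measured genes of the lipase list passed, against 1.15% of all genes. At an unadjusted p under 0.05 there were 3, against 14.6% of all genes. Angptl4, an Lpl inhibitor induced by fasting and by fatty acid receptors of the PPAR family, read 8.63, 8.24, 9.09 and 8.35 in knockout and 7.68, 8.32, 7.07 and 7.82 in wild type livers, and differed by 0.86 ± 0.26 (SE, adjusted p 0.204). Only wild type 2 lay within the knockout range. Angptl8, an Lpl inhibitor known to be induced by feeding, read 6.26, 6.95, 5.79 and 6.29 in knockout and 7.15, 8.27, 6.82 and 7.30 in wild type livers, at -1.06 ± 0.31 (adjusted p 0.188). Here knockout 2 lay above wild type 3, and wild type 2 was the highest. Gpihbp1, which carries Lpl across the capillary wall, differed by 0.12 ± 0.25 (adjusted p 0.910), and Apoc2, the activator of Lpl, by 0.17 ± 0.21 (adjusted p 0.839).

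Of the 11 other apolipoproteins measured 0 passed in limma (1.15% of all genes), and 2 had an unadjusted p under 0.05 (14.6% of all genes). Their median difference was 0.05. Clu, clusterin, also called apolipoprotein J, had the lowest p, at 0.58 ± 0.15 (SE, adjusted p 0.142), with all knockout livers above all wild type livers. Among 22 genes of apoB lipidation and VLDL export 19 had higher means, against 53.3% of all genes, with a median of 0.10. Of these 0 passed, against 1.15% of all genes, and 3 had an unadjusted p under 0.05, against 14.6%. Apobec1, the deaminase that edits the Apob transcript into its short form, had the lowest p, reading 5.98, 5.72, 5.86 and 6.41 in knockout and 5.71, 5.18, 5.33 and 5.05 in wild type livers. Its groups were just apart, and the difference was 0.67 ± 0.18 (adjusted p 0.136). These arrays measure the level of the Apob transcript and not its editing.

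Of 11 genes of HDL remodelling 0 passed in limma, against 1.15% of all genes, and 4 had an unadjusted p under 0.05, against 14.6%. Means were higher for 6, against 53.3% of all genes, and lower for 5, with a median of 0.02. Abca7, a lipid transporter, had the lowest p and was lower in the knockout, at -0.48 ± 0.11 (SE, adjusted p 0.0891). Scarb1, the HDL receptor of hepatocytes, differed by 0.23 ± 0.10 (adjusted p 0.370). The 11 genes that flank the Apoa1 and Apoe clusters gave a median of 0.03. Of these 0 passed in limma (1.15% of all genes), and 3 had an unadjusted p under 0.05 (14.6% of all genes). Tagln, a smooth muscle protein, had the lowest p of them at -0.72 ± 0.27 (adjusted p 0.312).

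Of 23 measured transcription regulators of apolipoprotein genes 18 had higher means in the knockout, against 53.3% of all genes, with a median of 0.14. In limma 0 passed, against 1.15% of all genes, and 5 had an unadjusted p under 0.05, against 14.6%. Nr0b2, the bile acid-induced corepressor SHP, had the lowest p. It read 8.03, 8.16, 7.87 and 8.06 in knockout and 7.48, 7.56, 6.74 and 6.62 in wild type livers, without overlap, and differed by 0.93 ± 0.21 (SE, adjusted p 0.0864). Creb3l3, a liver membrane-bound factor known to activate Apoa4 and Apoa5, read 9.31, 9.57, 9.57 and 9.47 in knockout and 8.96, 9.22, 8.49 and 8.77 in wild type livers. All knockout livers lay above all wild type livers, and the difference was 0.62 ± 0.15 (adjusted p 0.103). Without wild type 2, Clu, Creb3l3 and Nr0b2 passed as well as Lrpap1. Hnf4a, a nuclear receptor that drives many apolipoprotein genes, differed by 0.42 ± 0.16 (adjusted p 0.345), and Ppara by 0.01 ± 0.17 (adjusted p 0.988).

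**Figure D5:**
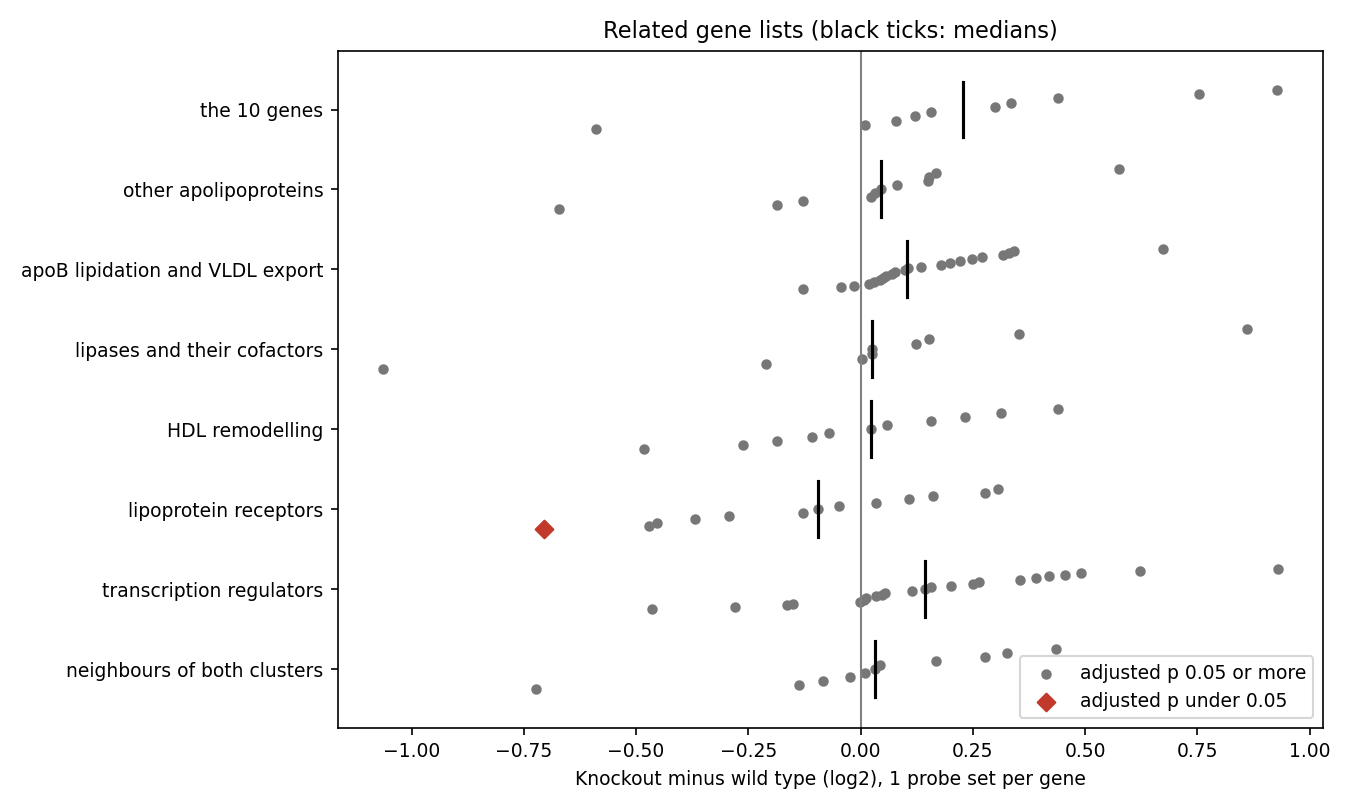
Difference between knockout and wild type livers on the log2 scale (horizontal axis) for each measured gene (points, 1 probe set per gene) of the 10 genes and of 7 lists of related genes (rows), with list medians as black ticks. The single diamond, in the row of receptors, is Lrpap1 at -0.71, the gene past the threshold. The medians run from -0.09 for receptors to 0.23 for the 10 genes.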

How the data were processed

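The deposited table holds log2 values made by the authors with RMA, per the submitters' processing notes; the sources used here do not give software, version or settings. Of 45101 probe sets, 64 array controls were left out, leaving 45037, of which 34945 are paired with 1 gene, 932 with several and 9160 with none listed. The probe set with the highest mean stood for a gene in gene lists. Groups were compared with limma 3.58.1 in R 4.3.3 (lmFit, eBayes, no covariate, two-sided), with Benjamini-Hochberg adjustment over the 45037 probe sets and a threshold of 0.05. The fit was tested on simulated data. Differences within pairs of genes were tested by exact permutation. The genes named are the 10 genes, Hsd17b4, regulators and cofactors chosen by role, genes past the threshold in each list or else that with the lowest p, and the 3 genes most like Lpl. The 10 genes and all lists were chosen with earlier results of these data known. A test between the replicate sets was chosen after the values were seen. Nothing in the labels says whether the livers came from separate litters. The number of arrays, 4 against 4, limits the precision. Alternatives changed 1 choice at a time: filtering, normalization, variance model, array weights, blocks, covariates, and leaving out each liver. Some related genes are not analysed here.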

Additional observations from a re-analysis of the deposited data

Results flagged for a closer look

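In 94 groups of 4 livers tested, 7 had a highest or lowest liver whose gap to the nearest other one exceeded Dixon's critical share of the range at the 95% level, and chance alone gives this in about 1 of 20 groups. For Apoa1, wild type 2 was low at 13.38 against 13.44 in the other wild type livers on 1438840_x_at (gap share 0.952) and at 13.10 against 13.17 to 13.19 on 1419232_a_at (0.873). Wild type 2 was also low for Apoc2, at 10.98 against 11.46 to 11.48 (0.966). For Apob minus Mttp, wild type 3 was high at 2.90 against 2.38 to 2.45 (0.874). C1qa was high in wild type 1, at 8.03 against 7.52 to 7.59 (0.862), and Fabp4 low in knockout 1, at 6.12 against 6.84 to 6.91 (0.910). The Y-linked gene Kdm5d was low in wild type 3, at 1.65 against 4.16 to 4.35 (0.930). The mean of 3 Y-linked genes lay between 2.23 and 5.35 in knockout and between 2.04 and 5.36 in wild type livers, low in knockout 1 and 2 and in wild type 3, and the labels do not give sex.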

How the results depend on the processing

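Of the 340 differences of the 17 probe sets under 20 alternatives, 332 kept their direction and 7 passed the threshold, where 0 of the 17 did as reported. Directions reversed for Apoa2 at -0.0049 (median centred), -9.13e-05 (array weights), -0.0144 (replicates 3 and 4 alone), -0.0013 (without knockout 4) and -0.0347 (without wild type 2), within a range up to 0.0390 with 1 liver left out. They also reversed with the erythroid mean as a covariate for Apoa4 (-0.24 and -0.44) and Apob 1457554_at (-0.0431), in a fit where that mean does not overlap between genotypes. The count of 0 probe sets past the threshold became 1 with a variance trend, with array weights and with the array set block (replicates 1 and 2 against 3 and 4), and 3 in replicates 3 and 4 alone. The 1 related gene became 0 after a further quantile normalization, with the replicate block, in replicates 1 and 2 alone and with the erythroid covariate, 2 with the array set block or with the mean of all probe sets of a gene, and 6 with array weights; in replicates 3 and 4 alone the 1 gene was Nr0b2. Over all probe sets 343 passed, against 914 with array weights and 527 with the Y-linked mean as a covariate. In replicates 3 and 4 alone 461 passed, and in replicates 1 and 2 alone 4. With the replicate block 15 passed, and with the erythroid covariate 0. The replicate block had little basis in pairing by number, since deviations of same-numbered livers from their group means correlated at between -0.0039 and 0.259. Knockout livers 1 to 4 correlated best with wild type livers 2, 1, 4 and 4, each in the same set of replicates. Whether these sets are batches is not given in the labels and was not tested. With the erythroid covariate Hsd17b4 differed by -4.52 (limma adjusted p 0.428). Leaving out 1 liver at a time gave 0 to 1 of the 17 probe sets, 0 to 4 related genes and 9 to 489 probe sets in all. Apob minus Mttp reversed to -0.0431 with the mean of all probe sets, -0.0234 after quantile normalization and -0.14 in replicates 3 and 4 alone, and ranged from -0.0169 to 0.16 with 1 liver left out, and Apoa4 minus Apoa5 from -0.0112 to 0.54. The cause of these changes was not tested. Whether values near the top of the scale (Apoa1, Apoa2, Apoe) are compressed was not tested.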
